A study of Homo sapiens with 4 samples.

Results

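The promoter peaks described here were bound by c-MYC in untreated-control MIA PaCa-2 cells, were called again under the MEK inhibitor trametinib and were not called under the inhibitor AMG510. MIA PaCa-2 is an established line of human cells from a pancreatic ductal adenocarcinoma. The peaks were selected on the deposited peak lists, that is, on measured binding. A peak of the DMSO list was taken when its summit was at most 1 kb from where a protein-coding transcript starts (its TSS), when at least 1 bp of it was covered by a trametinib c-MYC peak and when no AMG510 c-MYC peak overlapped it. This gave 488 peaks of the 4621 DMSO promoter peaks and the 9552 DMSO c-MYC peaks. They are called trametinib-only peaks below. Of the remaining promoter peaks, 738 were kept under AMG510 only, 794 under both drugs and 2601 under neither.

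Chromatin immunoprecipitation followed by sequencing (ChIP-seq) followed 8 h of DMSO (the solvent), 100 nM AMG510 or 10 nM trametinib. A c-MYC antibody was used for 1 library per treatment, and a 4th library, from DMSO-treated cells, used non-specific IgG as the control. With 1 library per group, the drug and the library cannot be told apart, and a peak that is missing from a list is one that did not pass the calling limit there. The 3 c-MYC lists rested on like numbers of tags (reads entering peak calling, estimated from the background of each list), 24000000 for DMSO, 24300000 for AMG510 and 24800000 for trametinib. Published counts of uniquely mapped reads put trametinib lowest of the 3, whereas these estimates put it highest. The lists differed in length, with 10378 peaks for AMG510 and 5431 for trametinib beside the 9552 for DMSO. The pileup is the number of tags stacked at the summit, and at the background of the whole genome a call needed at least 7 tags in AMG510 and 8 in DMSO and trametinib. Pileups below those limits are not known.

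MYC is a basic helix–loop–helix factor that binds DNA as a dimer with MAX. Its preferred site is the E-box CACGTG, and it also occupies CpG-rich promoters of active genes that lack this site, chiefly genes for ribosome assembly, translation, nucleotide synthesis and metabolism. MEK phosphorylates ERK, and ERK signalling is known to support both the transcription of MYC and the stability of its protein.

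The sequences below are the E-boxes that lay closest to the DMSO and the trametinib summit of the same peak. They were chosen for that closeness, and only 72 of the 488 peaks (14.8%) had an E-box within 100 bp of both summits. Each sequence is 30 bases of the plus strand of GRCh38, 5′ to 3′, with the E-box in capitals.
EWSR1, chr22:29268639-29268668: cgggcctcccgcCACGTGggcggggcctgc
RNASEH2B, chr13:50910110-50910139: ggcgcccggcagCACGTGttcctggtttca
RAD54L, chr1:46247023-46247052: gcccgagcccgcCACGTGgcagtctgggcc
CTBP2, chr10:125161365-125161394: ctccgccccttcCACGTGgggtaccgggca
RAI14, chr5:34656257-34656286: gcgcccggcggcCACGTGgtggtgctgccg
MSL3, chrX:11757902-11757931: cgaccctgcgcgCACGTGggcgcagcctgg
CLDN11, chr3:170419063-170419092: caccatggtggcCACGTGcctgcaggtggt
MPC1, chr6:166383413-166383442: gcttcccacaccCACGTGggcggacccggc

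At EWSR1, which encodes an RNA-binding protein of the FET family, the centre of the E-box was 1.5 bp from the DMSO summit and 2.5 bp from the trametinib summit, in intron 1. At RNASEH2B, which encodes a subunit of the ribonuclease that removes RNA from RNA–DNA hybrids, the distances were 5.5 and 2.5 bp. At RAD54L, a gene of homologous recombination, they were 10.5 and 6.5 bp, and at CTBP2, a transcriptional co-repressor, 15.5 and 0.5 bp. At MPC1, which encodes a subunit of the mitochondrial pyruvate carrier, they were 22.5 and 13.5 bp. In 5 of the 8 sequences the E-box followed a C and preceded a G, which makes the palindrome CCACGTGG.

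The first comparison asked how often DMSO promoter peaks were called again. A trametinib peak covered 1282 of the 4621, or 27.7%, and an AMG510 peak 1532, or 33.2%. The trametinib-only peaks made up 10.6% (95% Wilson interval 9.71 to 11.5). The rule itself fixes this number, so it is a description. The peaks fell near 555 genes, or 11.6% of the 4770 genes with a DMSO promoter peak. The nearest TSS belonged to 483 different genes, and 5 of these had more than 1 such peak.

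The share kept under trametinib only was compared over the strength of the DMSO peak. Fold enrichment is the ratio of the pileup to the local background, each with 1 added. In the weakest decile of the DMSO list, with a fold enrichment of 1.28 to 3.63, 8.39% of promoter peaks were trametinib-only. The lowest share, 6.73%, was in decile 2 and the highest, 12.4%, in decile 9. In the strongest decile, from a fold enrichment of 6.49 upwards, it was 10.7%. Over the same deciles the share kept under both drugs went from 3.11% to 55.1%. Peaks kept under AMG510 only, for which the list was longer, were more frequent than trametinib-only peaks in every decile, from 10.8% in decile 3 to 21.8% in decile 9.

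**Figure D1:**
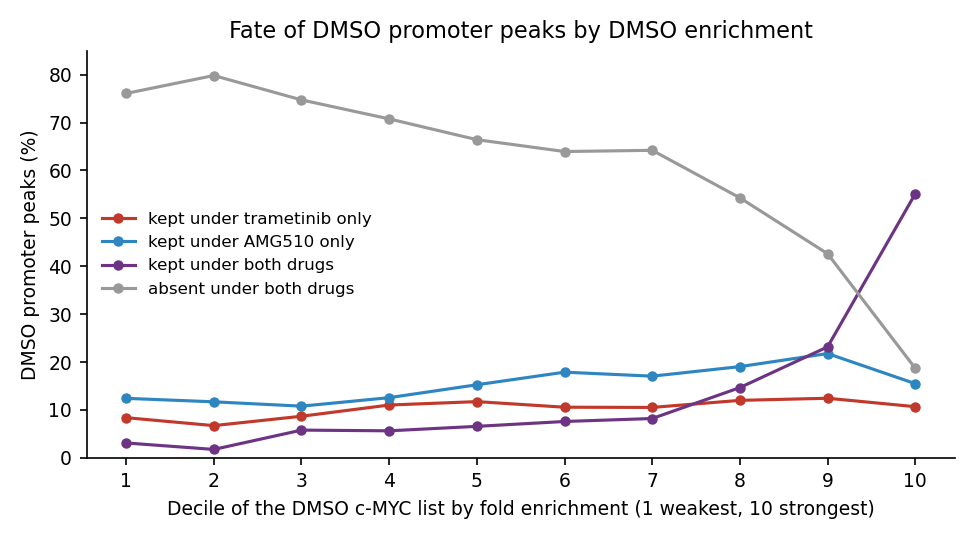
Share of DMSO promoter peaks (y axis, %) with each fate, by decile of the DMSO c-MYC list ranked by fold enrichment (x axis), 1 library per treatment. The trametinib-only line stays between 6.73% and 12.4%, whereas the line for both drugs climbs to 55.1% in the strongest decile.

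In DMSO the trametinib-only peaks were of middling strength. Their median fold enrichment was 5.03 (quartiles 4.36 and 5.85), next to 5.05 for peaks kept under AMG510 only, 6.57 for peaks kept under both drugs, 4.55 for peaks kept under neither and 4.90 over all promoter peaks. The median pileup was 17 tags for both kinds of peak kept under a single drug, 25 tags for peaks kept under both and 14 tags for peaks kept under neither. Because the rule uses the same lists, these values carry no test. The median width was 311 bp for the trametinib-only peaks and 457 bp for peaks kept under both drugs.

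The trametinib peaks at these promoters were weaker than those at promoters kept under both drugs. Their median fold enrichment was 4.59 against 5.26, and their median pileup 14 tags against 17. The unscaled pileup was higher in trametinib than in DMSO at 99 of the 488 peaks (20.3%). The same held at 91 of the 794 peaks kept under both drugs (11.5%). At no trametinib-only peak did the counting interval of the trametinib pileup lie wholly above that of DMSO, and at 9 (1.84%) it lay wholly below. Of the 794 peaks kept under both drugs it lay wholly below at 68 (8.56%) and wholly above at none. The trametinib summit fell inside the DMSO peak at 390 of the 488 peaks (79.9%). The median distance between both summits was 79.5 bp (95% interval 68 to 92), and 55 bp (50 to 62) at peaks kept under both drugs.

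The 10 trametinib-only peaks of largest DMSO fold enrichment lay at genes of varied function. The peak at GEMIN7, which encodes a protein of the SMN complex that assembles spliceosomal ribonucleoproteins, ran over chr19:45079042-45079381. It held 57 tags in DMSO (counting interval 43.2 to 73.9; fold enrichment 11.4) and 17 tags in trametinib (9.90 to 27.2; 4.54). The peak ranked above 99.3% of the DMSO list and 50.2% of the trametinib list, and the nearest AMG510 peak was only 33 bp away. The intervals of both pileups did not overlap.

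CPNE7, which encodes a calcium-dependent phospholipid-binding copine, showed the same order. Its peak at chr16:89575594-89576078, in the 5′ untranslated exon 1, had 53 tags in DMSO (39.7 to 69.3) and 14 in trametinib (7.65 to 23.5). EXOSC5, a subunit of the RNA exosome, had 34 tags in DMSO (23.5 to 47.5) and 19 in trametinib (11.4 to 29.7) at chr19:41397158-41397482 in coding exon 1, and here the intervals overlapped. The nearest AMG510 peak was 86657 bp away. The start of BCKDHA, a subunit of the branched-chain keto acid dehydrogenase, lay within 1 kb of the same summit.

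TRMT10C, a subunit of mitochondrial ribonuclease P, held 30 tags in DMSO (20.2 to 42.8) and 13 in trametinib (6.92 to 22.2) in intron 1. LFNG, a glycosyltransferase that modifies Notch receptors, held 36 and 16 tags upstream of its TSS. USP45, which encodes a deubiquitinase, held 23 and 18 tags, with both summits 1 bp apart. The others in this group were at RNASEH2B (33 and 14 tags), SLC35F2, a solute carrier (27 and 15), BMP8B, a bone morphogenetic protein (24 and 14) and ANKRD36B (27 and 14). The summits at BMP8B were 238 bp apart. All 10 had fewer tags in trametinib than in DMSO, and they were picked for a high DMSO value.

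None of the 10 leading peaks by trametinib fold enrichment, which were picked for a high trametinib value, was among these 10. The largest fold enrichment was at CITED2, which encodes a co-regulator that binds CBP and p300. There 34 tags in trametinib (23.5 to 47.5) compared with 26 tags in DMSO, but the summits were 485 bp apart. The trametinib peak also covered a second DMSO peak at CITED2 with 81 tags, and its summit lay inside that stronger peak. In all, 7 trametinib-only peaks shared their trametinib peak with another DMSO peak, and at 2 of them the trametinib summit lay inside that other peak.

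ATAD3A, an ATPase of the mitochondrial membranes, had 13 tags in DMSO (6.92 to 22.2) and 21 in trametinib (13.0 to 32.1) at chr1:1511477-1511787, upstream of the TSS. It ranked above 46.5% of the DMSO list and 97.3% of the trametinib list. ARPC5L, a subunit of the actin-nucleating ARP2/3 complex, had 17 and 26 tags, and SPOPL, a substrate adaptor of a cullin ubiquitin ligase, 13 and 20. In each of these genes the counting intervals overlapped.

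TRPC4AP, which encodes an adaptor for a cullin ubiquitin ligase, ranked high in both lists, above 97.7% in DMSO with 31 tags and above 96.1% in trametinib with 21 tags. RBM3, a cold-inducible RNA-binding protein, had 25 and 22 tags, and TRMT5, a tRNA methyltransferase that shares its promoter region with SLC38A6, had 21 tags in each. PRELID3A, of a family of phospholipid transfer proteins, had 28 and 26 tags. MRPL42 and RPS15A, a mitochondrial and a cytosolic ribosomal protein, completed the group. In all, 80 of the 488 peaks ranked above 90% of the DMSO list, 42 above 90% of the trametinib list and 12 above 90% of both.

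**Figure D2:**
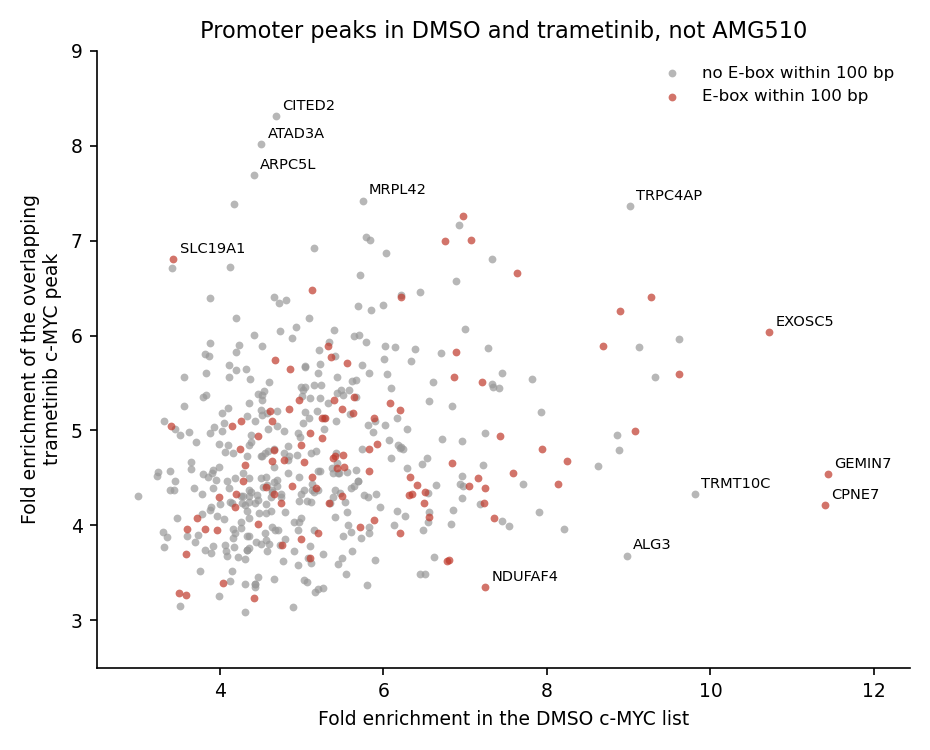
Fold enrichment in the DMSO c-MYC list (x axis) and of the overlapping trametinib c-MYC peak (y axis) for the nuclear trametinib-only promoter peaks, 1 point per peak, red where an E-box lies within 100 bp of the DMSO summit. GEMIN7 and CPNE7 stand far right at a fold of 11.4 in DMSO with 4.54 and 4.21 in trametinib, while CITED2 and ATAD3A stand at the top with 8.31 and 8.02.

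Ranks are given within each list, and since the lists differ in length a move in rank is not a change in binding. SLC19A1, the reduced folate carrier, ranked above 4.59% of the DMSO list with 15 tags (8.40 to 24.7) and above 94.7% of the trametinib list with 23 tags (14.6 to 34.5). AGPAT3, an acyltransferase of phospholipid synthesis, also had 15 and 23 tags. SLC1A4, a neutral amino acid transporter, RPP38, a subunit of ribonucleases P and MRP, and SLC35D1, a nucleotide-sugar transporter, had 12 and 15, 11 and 20, and 12 and 17 tags, respectively. These 5 were picked for the largest rises in rank, and the pileup intervals overlapped in each.

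At the other end were NDUFAF4, an assembly factor of respiratory complex I, with 21 tags in DMSO (13.0 to 32.1) and 10 in trametinib (4.80 to 18.4), and ALG3, a mannosyltransferase of N-glycosylation, with 48 tags (35.4 to 63.6) and 16 (9.15 to 26.0). CLTB, a clathrin light chain, had 30 and 11 tags, the zinc-finger gene ZNF692 31 and 12, and ARMC3 18 and 9. The summits at ARMC3 were 384 bp apart. The intervals did not overlap at ALG3, CLTB and ZNF692. These 5 genes were picked for the largest falls in rank, a choice that favours fewer tags in trametinib. SNAI1, which encodes the epithelial–mesenchymal transition factor SNAIL, was a further gene among the 9 without overlap, with 35 tags in DMSO (24.4 to 48.7) and 13 in trametinib (6.92 to 22.2). It was singled out after its values were seen. The remaining genes of the 9 were FJX1, PALS2 and MAN1B1.

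The sequence around the summits was not used to choose the peaks. An E-box was present within 100 bp of the DMSO summit in 107 of the 488 trametinib-only peaks, a share of 21.9% (18.5 to 25.8), where 16.9% of all DMSO promoter peaks had 1 or more. In windows of the same width placed 1 kb to either side of these summits the share was 3.38% (2.42 to 4.71), and at 20046 canonical TSS of protein-coding genes it was 5.66%. The share was 17.6% in peaks kept under AMG510 only (15.0 to 20.5), 28.5% in peaks kept under both drugs (25.4 to 31.7) and 12.3% in peaks kept under neither (11.1 to 13.6).

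Each difference of shares was given a 95% Newcombe interval, which treats peaks as independent and covers counting error only. Trametinib-only peaks exceeded peaks kept under neither drug by 9.66 percentage points (5.97 to 13.7). Averaged over deciles of DMSO fold enrichment by the Mantel–Haenszel method, this difference was 6.92 points (3.04 to 10.8). They fell below peaks kept under both drugs by 6.54 points (interval −11.3 to −1.61). Within deciles this difference changed sign to 1.57 points, and its interval included 0 (−3.63 to 6.76). Split at the median fold enrichment of the DMSO list, it kept its sign. It was −2.78 points above the median (−8.59 to 3.35) and −3.41 points at or below it (−13.3 to 5.01). A difference from peaks of like strength that were kept under both drugs was therefore not detectable.

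Against peaks kept under AMG510 only, which matched them in DMSO strength, the difference was 4.31 points (−0.20 to 8.97), and within deciles it was 4.62 points (0.11 to 9.13). Whether the interval included 0 changed with the setting. It left out 0 under 6 of 14 alternatives, the average over deciles among them, and included 0 under the others. Among peaks above the median fold enrichment of the DMSO list, 27.2% of 312 trametinib-only peaks and 21.3% of 503 AMG510-only peaks had an E-box, a difference of 5.97 points (−0.019 to 12.2). At or below that median the shares were 12.5% of 176 and 9.79% of 235.

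**Figure D3:**
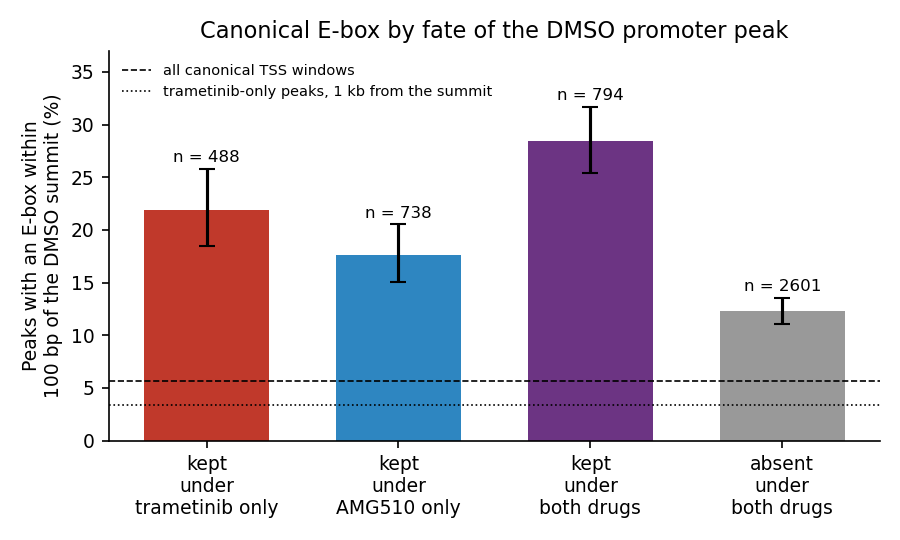
Share of DMSO promoter peaks with CACGTG within 100 bp of the summit (y axis, %), by fate under the drugs, with 95% Wilson intervals as error bars and the number of peaks above each bar. The trametinib-only bar, at 21.9%, stands between those of peaks kept under both drugs (28.5%) and under neither (12.3%), and all bars stand above the dashed line of canonical TSS windows at 5.66%.

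E-boxes lay close to the summits. Within 50 bp of the DMSO summit 66 of the 488 peaks (13.5%) had an E-box, and within 25 bp 34 (6.97%). Around the trametinib summit of the same peaks, an E-box lay within 100 bp in 89 (18.2%), compared with 221 of 794 (27.8%) around the trametinib summits of peaks kept under both drugs. In 72 peaks (14.8%) an E-box lay within 100 bp of both summits. The summits of the 107 peaks with an E-box were a median of 53 bp apart (95% interval 40 to 72), and those of the 381 peaks without were 89 bp apart (75 to 103). Their median pileup was 20 tags in DMSO with an E-box and 17 without, and 14 tags in trametinib both with and without an E-box.

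**Figure D4:**
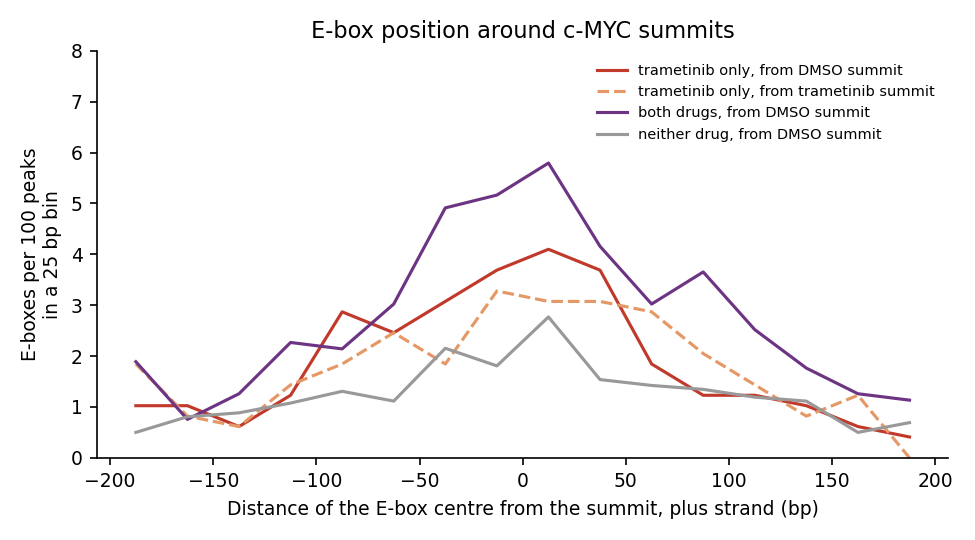
Number of E-boxes per 100 peaks in bins of 25 bp (y axis) by distance from the summit along the plus strand (x axis). In trametinib-only peaks the bin just right of the DMSO summit holds 4.10 E-boxes per 100 peaks, compared with 5.79 in peaks kept under both drugs and 2.77 in peaks kept under neither.

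The bases beside the E-box were then compared, a choice made after other values had been seen. Of the 111 E-boxes in the windows of trametinib-only peaks, 32 were part of CCACGTGG, a share of 28.8% (21.2 to 37.9). This was 15.3% of 137 E-boxes in AMG510-only peaks (10.2 to 22.3), 23.7% of 253 in peaks kept under both drugs, 16.8% of 345 in peaks kept under neither and 9.32% of 1244 at canonical TSS. The difference from AMG510-only peaks was 13.5 points (3.18 to 23.9) and that from peaks kept under neither drug 12.0 points (3.28 to 21.7). From peaks kept under both drugs the difference, 5.11 points, had an interval that included 0 (−4.34 to 15.3). The EWSR1, RAD54L, CTBP2, RAI14 and MPC1 sequences above have this longer palindrome.

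The noncanonical E-box CACGCG, on either strand, was found in 27.3% of trametinib-only peaks (23.5 to 31.4), 26.0% of AMG510-only peaks and 30.7% of peaks kept under both drugs. Peaks kept under neither drug had it in 19.5%, which was 7.80 points lower (3.73 to 12.2). At canonical TSS the share was 10.7%. CACGCG and CACGTG can share bases, and a window could hold both. Neither CACGTG nor CACGCG was within 100 bp in 271 of the trametinib-only peaks (55.5%).

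Motifs of other promoter factors were compared in the same windows. Peak windows were centred on the DMSO summit and canonical TSS windows on the start site, and the effect of this difference was not tested. GGGCGG, the GC box bound by SP and KLF factors, was present on either strand in 62.3% of trametinib-only peaks and 53.6% of canonical TSS windows. CCAAT, bound by NF-Y, was present in 6.97% and 25.3%, respectively, and in 8.96% of all DMSO promoter peaks. Its share minus that of peaks kept under neither drug was −3.22 points (−5.51 to −0.39). CGGAAG, a core of ETS factor sites, was present in 16.8% of trametinib-only peaks, 18.6% of AMG510-only peaks and 20.0% of canonical TSS windows. For these 3 motifs no difference between trametinib-only and AMG510-only peaks was detectable. Part of the CRE site, TGACGT, was found in 2.05% of trametinib-only peaks. Part of the NRF1 site, CATGCGC, was found in 2.46%, and part of the YY1 site, AAGATGG, in 3.07%. Over all DMSO promoter peaks these 3 shares were 2.73%, 2.83% and 3.16%. At canonical TSS they were 6.89%, 4.16% and 5.33%. All motifs were searched on both strands. Over all sequence and position features 56 unstratified differences between classes were computed without adjustment, and 8 had an interval that left out 0. A further 46 differences came from the deciles, the split of the DMSO list at its median and the bases beside the E-box, and 8 of these had such an interval.

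The side of the TSS did not differ detectably between the classes. The summit was downstream of the nearest TSS in 66.6% (62.3 to 70.6), and this share differed from that of AMG510-only peaks by −0.34 points (−5.76 to 4.99). The median distance was 163 bp. A summit within 200 bp of the TSS was found in 56.8% of trametinib-only and 62.8% of both-drug peaks, a difference of −6.08 points (−11.6 to −0.57), which within deciles of fold enrichment was −2.92 points (−8.98 to 3.15). On the canonical transcript of the nearest gene 180 summits fell in an intron, 141 upstream, 91 in the 5′ untranslated region and 75 in a coding exon. A second protein-coding gene started head to head within 1 kb upstream in 9.84% (7.50 to 12.8), compared with 10.4% of AMG510-only peaks. The median GC content of the windows was 72.1%, and the median ratio of observed to expected CpG was 0.87 (0.85 to 0.90), which compares with 0.89 (0.88 to 0.91) in AMG510-only peaks.

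The IgG list covered 1 of the 488 peaks, a share of 0.20% (0.036 to 1.15), where the share over all DMSO promoter peaks was 0.26%. This peak lay on the mitochondrial chromosome, from 7853 to 8197 near the starts of MT-ATP8 and MT-ATP6, with 307 tags in DMSO and 282 in trametinib over a high local background and a fold enrichment of 1.44 and 1.34. It is the only trametinib-only peak outside the nuclear genome. On the nuclear chromosomes the members took from 3.26% of the promoter peaks (3 of 92 on chromosome 15) to 15.3% (9 of 59 on chromosome 21).

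Gene groups were read against the background that 11.6% of genes with a DMSO promoter peak had a trametinib-only peak. None of the 44 large ribosomal subunit genes with a DMSO promoter peak did, and 37 of them had a peak kept under both drugs. Of the 27 small subunit genes 2 had a trametinib-only peak and 21 a peak kept under both. RPS15A had 18 tags in DMSO and 23 in trametinib.

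Of the 34 mitochondrial ribosomal protein genes 5 (14.7%) had a trametinib-only peak, a share near the background, and 2 a peak kept under both drugs. MRPL42 had 14 and 19 tags, MRPS30 26 and 17, MRPS27 22 and 18, and MRPS25 15 and 11. The summits at MRPS30 were 435 bp apart. The remaining gene was MRPL43, whose peak lay nearest to the start of TWNK. None of the 5 had an E-box within 100 bp of the DMSO summit. These counts describe the lists and were not tested.

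In ribosome biogenesis 2 of 49 genes had a trametinib-only peak, each with an E-box within 100 bp of the DMSO summit. At NOP56, a core protein of box C/D small nucleolar ribonucleoproteins, 31 tags in DMSO stood against 15 in trametinib. At SURF6, a nucleolar protein, 20 stood against 17. The summits were 345 bp apart at NOP56 and 259 bp at SURF6, and the E-box lay 381.5 and 256.5 bp from the trametinib summit. The AMG510 peak nearest to NOP56 was 610 bp away. Among translation factors there was 1 gene of 27, EIF4B, which stimulates the helicase eIF4A, with 17 and 11 tags. Among aminoacyl-tRNA synthetases there were 2 of 21, LARS1 and EARS2. Among splicing factors there were 4 of 45, HNRNPA3, HNRNPD, HNRNPL and SRSF4. Of the 15 coding genes that host small nucleolar RNAs, 2 had a trametinib-only peak, NOP56 and HSPA8. HSPA8, the constitutive HSP70 chaperone, had 16 and 19 tags.

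In nucleotide synthesis 2 of 29 genes had a trametinib-only peak. CAD, the enzyme of the opening steps of pyrimidine synthesis, had 24 tags in DMSO (15.4 to 35.7) and 11 in trametinib (5.49 to 19.7) at chr2:27217306-27217866, with 2 E-boxes within 100 bp of the DMSO summit. The trametinib summit at CAD lay 219 bp from the DMSO summit and 243.5 bp from the closer E-box. GART, a trifunctional enzyme of purine synthesis, had 23 and 19 tags. In glycolysis 3 of 14 genes (21.4%) had a trametinib-only peak, which was not tested against the background of 11.6%. GAPDH had 32 and 19 tags and PFKL 11 and 12. The trametinib peak at GAPDH ranked above only 0.41% of its list. ENO3, whose peak also lay near the start of PFN1, had 17 and 17. That DMSO summit lay at −3126 bp from the canonical start of ENO3. The summits were 402 bp apart at GAPDH and 441 bp at ENO3, so these tags were counted at separate positions. The AMG510 peak nearest to GAPDH was 740 bp away. SLC7A5, the light chain of a leucine transporter, was 1 of 14 genes of amino acid supply and polyamines. It had 32 and 18 tags, at summits 456 bp apart.

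None of the 16 lipid synthesis genes with a DMSO promoter peak had a trametinib-only peak. A peak kept under both drugs was found at 4 and a peak kept under AMG510 only at 2. The other 10 had only peaks kept under neither drug. With so few genes, the count of 0 was not tested against the background of 11.6%. FASN, the fatty acid synthase, was not a member because no trametinib peak overlapped its DMSO promoter peak. No AMG510 peak overlapped that FASN peak either. No trametinib-only peak was found at the 23 lysosome and autophagy genes or the 12 genes of the MYC, MAX and MXD network. The 6 chaperonin and 17 histone genes had none either.

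Of the 16 feedback and immediate early genes of the MAPK pathway, which MEK and ERK control, 2 (12.5%) had a trametinib-only peak. This share was near the background of 11.6%, and 11 of the 16 genes had only peaks kept under neither drug. FOSL1, which encodes the AP-1 subunit FRA1, had 19 tags in DMSO (11.4 to 29.7) and 15 in trametinib (8.40 to 24.7), 876 bp into the gene in intron 1 and with an E-box. SPRED1, an inhibitor of RAS–ERK signalling, had 16 and 15 tags, upstream of its TSS. The nearest AMG510 peaks were 170646 and 767255 bp away. Elsewhere the counts were 1 of 16 proteasome genes (PSME4, whose peak lay nearest to ACYP2), 1 of 15 genes of complex I (NDUFAF4), 1 of 16 of complexes II to V (SDHAF2, whose peak lay nearest to CPSF7), 2 of 19 of mitochondrial import (TIMM13 and TIMM50), 1 of 19 replication genes (POLE3), 1 of 12 cell cycle genes (AURKB, an Aurora kinase of mitosis) and 12 of 144 zinc-finger genes.

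**Figure D5:**
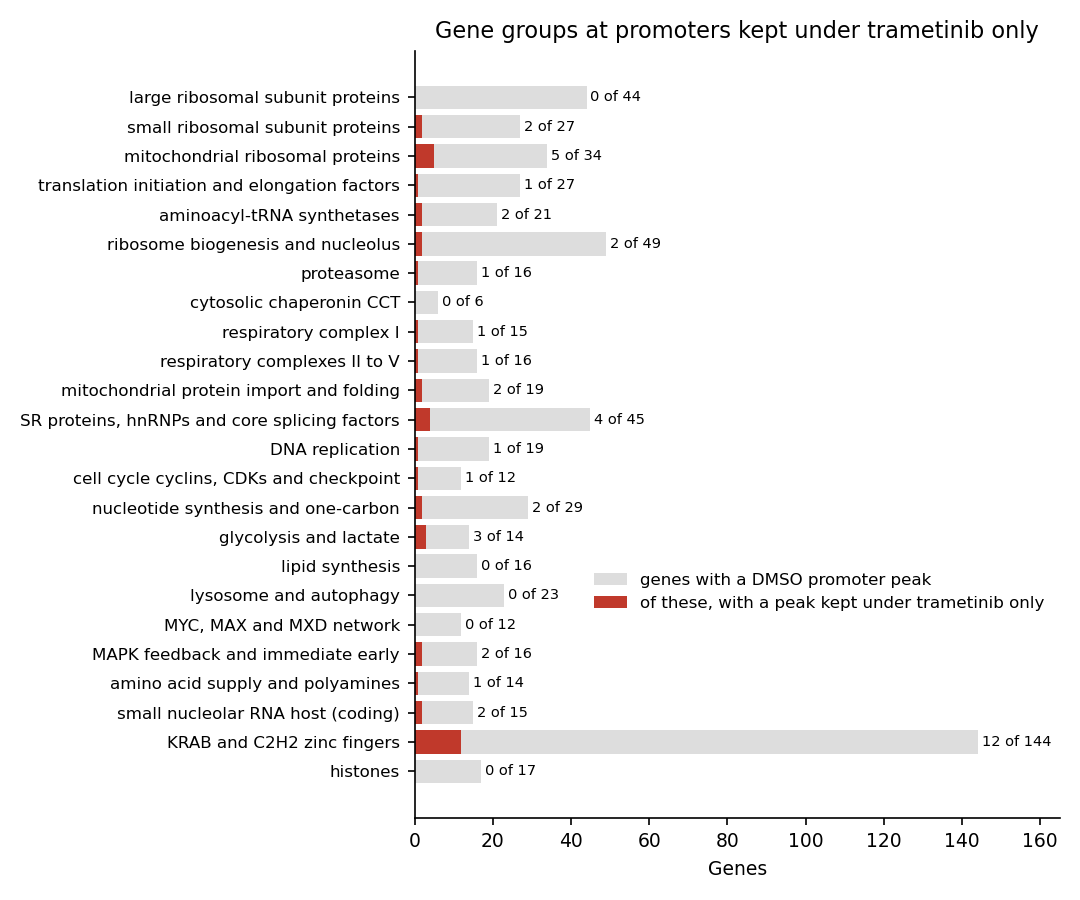
Genes with a DMSO promoter peak in each gene group (grey bars, number of genes on the x axis) and those of them with a trametinib-only peak (red). Large ribosomal subunit genes have 0 of 44 and mitochondrial ribosomal protein genes 5 of 34.

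Some peaks stood close to the limits of the rule. The AMG510 peak nearest to AGPAT3 abutted the DMSO peak with a gap of 0 bp, and the gaps at CNBP and MTG2 were 5 and 9 bp. An AMG510 peak lay within 100 bp of 10 trametinib-only peaks and within 1 kb of 68 (13.9%), and 100 of the 555 genes had an AMG510 promoter peak that did not touch the member. The smallest overlap with a trametinib peak was 4 bp, at CDC73, BMP8B and KCNC4. Just outside the rule, trametinib peaks missed the DMSO peaks at CTIF, LONRF2 and SERINC5 by 0, 2 and 2 bp. AMG510 peaks covered the DMSO peaks at CTTN and NEMP2 by 4 and 24 bp. The summits farthest from a TSS were at KLF9, 985 bp downstream, and at EMD, at −983 bp on the upstream side.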

How the data were processed

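Per the submitters' notes and methods, the authors trimmed paired reads (Trimmomatic 0.39), aligned them to GRCh38 (BWA 0.7.17), kept mapping quality of 20 or more (SAMtools 1.9), removed duplicates (Picard), converted them to intervals (bedtools 2.27.1), called peaks for each library separately (MACS2 2.2.7.1, q = 0.05) and removed ENCODE exclusion regions. The deposited values per peak are a fold enrichment (ratio), a −log10 p-value, a −log10 q-value and a score, which is 10 times the −log10 q-value without its decimals.

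Pileups were recovered from the fold enrichment and p-value and came out whole in 100% of peaks within a relative tolerance of 0.0001 of the p-value. Mates of a pair can both count as tags, so the exact Poisson intervals on pileups, like all intervals here, cover counting error only and are too narrow. Tags per library were estimated from the genome-wide background and the width of the shortest peak, read as how far tags were extended, over 2700000000 mappable bases. Whether the IgG library entered the calling as a control is not given in the sources used here. Contig names matched the reference. Start sites came from GENCODE version 44, using protein-coding transcripts of protein-coding genes, and coordinates are 1-based. Sequence was read from GRCh38 with pysam 0.24.0. Intervals used scipy 1.17.1 and statsmodels 0.14.6, and the functions were tested on simulated data. Medians carry exact order-statistic intervals.

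Members and gene lists were chosen with earlier results of these data known, and the pattern for translation factors was narrowed after the data were seen, to drop genes that are not such factors. Named genes were the 10 peaks of largest DMSO and of largest trametinib fold enrichment, 5 at each end of the rank change, the 8 with an E-box nearest both summits outside chromosome 8, members of gene lists, and those at the edges of the rule. A peak is named by its nearest start site. Alternatives covered the overlap, peak thresholds, start sites, promoter distance and E-box window. Some items are not reported here.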

Additional observations from a re-analysis of the deposited data

How the results depend on the processing

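No paired analysis was possible because there is a single library in every group, so no replicate could be left out either. The 13 results were computed again under alternatives, which gave 139 values. Of these, 107 stayed inside the counting interval of what is reported (for counts, within 1.5 times) with the same call, 22 moved further, 2 changed sign and 8 changed only whether an interval included 0. The cause was not tested, except where stated. The effect of depth was not tested. The median of 14 tags in trametinib stood against a calling limit of 8, which the rule required every member to pass. Binding below the limit in any library is not seen.

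Stricter DMSO peaks gave fewer members with more E-boxes. A fold enrichment above 5 left 249 members at 291 genes (11.6% of promoter peaks), an E-box share of 28.1% and a median fold enrichment of 5.83. A score above 60 left 208 members at 239 genes (12.0%), an E-box share of 31.7% and a median of 6.11. At that score the E-box difference from peaks kept under both drugs changed sign, to 0.26 points, as it did over deciles of fold enrichment (1.57 points), a setting added after the data were seen. A fold enrichment above 5 (−2.89 points) and an E-box window of 50 bp (−3.98 points) brought 0 into that interval. Against AMG510-only peaks the interval left out 0 with an overlap of 50% (5.87 points), summits within 200 bp (5.99), no AMG510 peak within 1 kb (6.62), canonical (4.82) or all transcripts (4.52) and over deciles (4.62). Requiring no AMG510 peak within 1 kb left 9.09% of promoter peaks. In that setting an AMG510 peak within 1 kb counted as kept in every class, so its AMG510-only peaks were defined more widely. With canonical transcripts only, 72.4% of summits lay downstream. The E-box share was 13.5% within 50 bp, 27.5% within 200 bp, 44.5% with CACGCG counted and 18.2% around the trametinib summit. The difference from peaks kept under neither drug was 5.80 points within 50 bp and 14.8 points with CACGCG. The IgG share was 0% with summits within 200 bp, with a fold enrichment above 5, with a score above 60 and without the mitochondrial chromosome (the last chosen after the data were seen), each of which leaves out the mitochondrial peak. Settings added later for CCACGTGG gave differences from AMG510-only peaks of 14.5 points within 50 bp and 11.0 points within 200 bp.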
